A study of Mus musculus with 6 samples.

Results

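The cells described here are those with a transcript signature of division, whatever their lineage, in mouse brain 24 h after sham surgery or after blockage of the middle cerebral artery (MCAO), a model of ischemic stroke. They were chosen by a count of 8 mitotic genes: a barcode with at least 300 detected genes and at most 10% mitochondrial UMIs (unique molecular identifiers, 1 per captured transcript) was taken when the summed UMIs of Mki67, Top2a, Cenpf, Birc5, Ube2c, Cdk1, Ccnb1 and Nusap1 reached 5. This found 173 cells among 57215 kept barcodes, 69 in the sham and 104 in the MCAO libraries. They are called proliferating below, a name for barcodes that met this rule, since division itself was not observed. The study made 3 droplet libraries per group, all from C57BL/6 mice aged 6 to 8 weeks, with no transgene or other treatment named in the labels. The sham group had surgery without the occlusion, and all 6 libraries came from papain digestion, a 30% Percoll step to remove myelin and a viability stain. The labels do not say which brain region was taken or whether each library is a separate animal, so a p-value below speaks only of the spread among these libraries, which may be technical.

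A cell that enters the cycle leaves G1 when cyclin D and cyclin E kinases free the E2F factors, which turn on the genes for DNA synthesis, among them the Mcm2 to Mcm7 helicase subunits, the sliding clamp Pcna and the nucleotide enzymes Rrm2, Tyms and Tk1. Later, in G2 and mitosis, the DREAM and B-MYB-FOXM1 complexes control a separate wave of genes through CHR and CCAAT elements. To this wave belong the kinase Cdk1 and its partner cyclin B1 (Ccnb1), topoisomerase Top2a, the survivin gene Birc5, the ubiquitin carrier Ube2c, the kinetochore protein Cenpf, the spindle protein Nusap1 and Mki67, which coats mitotic chromosomes. The 8 rule genes therefore see late S phase to mitosis best, and replication genes were read as a measure that the rule did not use. In the adult brain, dividing cells are known among neural precursors of the ventricular wall, oligodendrocyte precursors and microglia, while myeloid precursors normally divide in the bone marrow.

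The promoters of 4 rule genes and of the replication gene Mcm6 show the elements named for these waves, and the 4 are those of the 8 that hold a CHR. Each line gives 120 bases that end 2 bases before the RefSeq start of the gene, on the gene's own strand (RefSeq, build GRCm38.p6). Capitals mark the CHR element TTTGAA, the CCAAT box and E2F sites, each on either strand. The E2F sites searched were TTCCCGC, the related form TTGGCGC, the form with TTCGCGC and lastly the form with TTGCCGC.
Cdk1, chr10:69352915-69353034, minus strand: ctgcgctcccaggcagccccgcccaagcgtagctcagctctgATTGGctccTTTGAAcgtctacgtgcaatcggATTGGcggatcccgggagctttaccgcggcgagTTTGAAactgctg
Top2a, chr11:99024192-99024311, minus strand: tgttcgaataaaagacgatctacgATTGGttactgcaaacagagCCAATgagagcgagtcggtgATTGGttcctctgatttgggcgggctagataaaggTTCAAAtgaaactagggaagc
Ube2c, chr2:164769807-164769926, plus strand: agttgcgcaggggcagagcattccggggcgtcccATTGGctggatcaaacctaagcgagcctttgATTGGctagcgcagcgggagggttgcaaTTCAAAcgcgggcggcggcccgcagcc
Mki67, chr7:135716382-135716501, minus strand: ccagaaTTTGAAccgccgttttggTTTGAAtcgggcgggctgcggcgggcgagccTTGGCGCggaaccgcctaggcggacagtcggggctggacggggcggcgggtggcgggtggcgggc
Mcm6, chr1:128359708-128359827, minus strand: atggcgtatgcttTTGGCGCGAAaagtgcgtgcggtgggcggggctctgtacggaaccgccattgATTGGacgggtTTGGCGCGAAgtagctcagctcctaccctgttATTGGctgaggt
The CHR letters occurred 2 times in the printed stretch of Cdk1 and of Mki67 and 1 time in Top2a and Ube2c, and the E2F letters 4 times in Mcm6, where sites on opposite strands overlap. Over the 250 bases before the start, 4 of the 8 rule genes held the CHR letters, against 16.3% of all 27025 RefSeq promoters, and 3 of the 8 an E2F site (37.5%), so E2F letters were not limited to replication genes. Of the 28 replication genes with a RefSeq promoter, among 34 listed, 13 held an E2F site (46.4%), against 7.97% of all promoters, and 3 held the CHR letters (10.7%). Among 23 matched genes of a spindle, kinesin and cytokinesis list of 26, 9 held the CHR letters (39.1%) and 3 an E2F site. CCAAT, a box that is common in promoters, was found in 6 of the 8 rule genes, in 17 of the 28 replication genes (60.7%) and in 34.5% of all promoters. A match of letters is a description of the sequence and no evidence of binding.

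The rule genes were spread over 6 chromosomes of mm10: Mki67 at chr7:135689784-135716361, Top2a at chr11:98992943-99024189, Birc5 at chr11:117849251-117855743, Ube2c at chr2:164769898-164778822, Nusap1 at chr2:119618298-119651244, Cdk1 at chr10:69335146-69352938, Ccnb1 at chr13:100778650-100786570 and Cenpf at chr1:189640606-189688086 (gene bodies, GENCODE vM21). The values in this paragraph chose the cells and are given as a description. Summed rule UMIs ran from 5 to 89 per cell with a median of 15, and the median cell had 6 of the 8 genes. Birc5 was found in 148 of the 173 cells (85.5%), Top2a in 134 (77.5%), Cdk1 in 129 (74.6%), Ube2c in 120 (69.4%), Ccnb1 in 109 (63.0%), Mki67 in 107 (61.8%), Nusap1 in 99 (57.2%) and Cenpf in 80 (46.2%). Among the other kept barcodes the share with a UMI was lowest for Mki67, at 0.219%, and highest for Cdk1, at 1.38%. Most cells thus carried several rule genes: 160 had at least 3 of them, 5 had 2 and 8 had only 1.

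The cells that rest on a single rule gene are best named one by one. They were 3 microglia-like cells with Ccnb1 alone (8, 11 and 7 UMIs), an oligodendrocyte-like cell with 6 UMIs of Cenpf, another with 6 of Ccnb1, a T or NK-like cell with 7 of Birc5, and 2 cells of no named class with 25 UMIs of Cenpf and 5 of Birc5. In 7 of these 8 cells the replication list summed to under 10 UMIs. At the threshold, 18 barcodes had 4 rule UMIs (3 sham and 15 MCAO) and 19 had 5 (7 and 12). The replication list had a median of 19 UMIs at 4 rule UMIs and 25 at 5, and 11 of the 18 and 16 of the 19 barcodes were replication-positive as defined below.

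Replication genes gave a check of the label that the rule did not use. A cell was counted as replication-positive when at least 4 of the 34 listed genes gave at least 5 UMIs, and 148 of the 173 cells passed (85.5%), 60 of 69 in sham and 88 of 104 in MCAO. By comparison, 278 of the 1934 barcodes with 1 rule UMI passed. The selected cells were deep, and this touches every count of genes per cell: the median per library ran from 8805 to 11210 UMIs in sham and from 6721 to 7910 in MCAO, while all kept barcodes had medians of 2389 to 2469 and 2904 to 3530. The libraries held 8104 to 11772 barcodes and 25135690 to 42848023 UMIs each. Barcodes likely to hold 2 cells were called by comparison with simulated pairs and kept, and 16 of the 173 cells were so called (4 in sham 1, 5 in MCAO 1, 5 in MCAO 2 and 2 in MCAO 3). Of the barcode sequences, 1952 occurred in more than 1 library, among them those of 11 selected cells, but no 2 selected cells shared one.

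Proliferating cells made up a similar small part of every library. Their share was 0.210%, 0.323% and 0.245% in sham 1 to 3 (18, 27 and 24 cells) and 0.358%, 0.324% and 0.340% in MCAO 1 to 3 (41, 36 and 27 cells). The MCAO libraries were all higher, although sham 2 lay just under MCAO 2. The means were 0.259% ± 0.0581 (SD, n = 3) and 0.341% ± 0.0167, a ratio of 1.31, with p = 0.1 in an exact two-sided permutation test, the smallest that 3 against 3 libraries can give. With every barcode thinned to 1500 UMIs and at least 3 rule UMIs required, the sham shares were 0.0834%, 0.185% and 0.157%, against 0.223%, 0.167% and 0.240% in MCAO. These values overlapped (ratio 1.48, exact permutation p = 0.2), so a difference in the overall share was not detectable at this depth. Thinning left out 196 to 250 shallower barcodes in the sham and 0 to 327 in the MCAO libraries.

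The lineage of the proliferating cells differed between the groups. Classes came from clustering without cell cycle genes and from markers, and each name stands for cells like that type. In sham, 40 of 69 proliferating cells (58.0%) were monocyte-derived-like or neutrophil-like, and 4 (5.80%) were microglia-like. In MCAO the same 2 myeloid classes held 13 of 104 (12.5%), while microglia-like cells held 37 (35.6%) and T or NK-like cells 23 (22.1%). In all, 140 of the 173 cells (80.9%) fell into 6 immune classes.

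**Figure D1:**
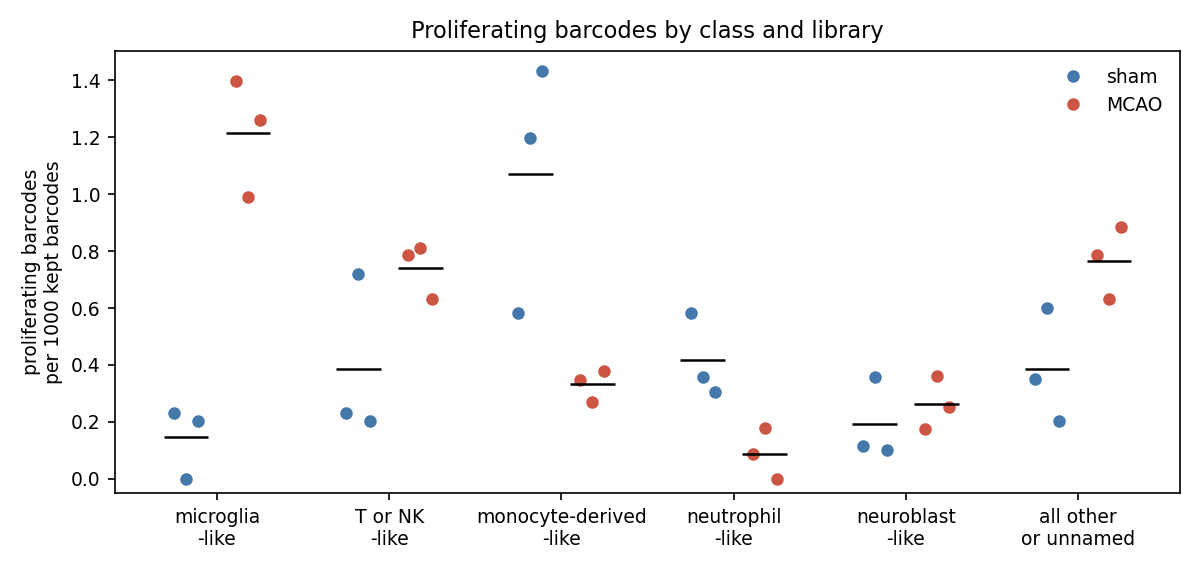
Rate of proliferating cells of each class (horizontal axis) in each library (points, vertical axis in proliferating cells per 1000 kept barcodes), with the mean of each group as a line. The microglia-like points lie higher in the 3 MCAO libraries than in any sham library, and the monocyte-derived-like points lie higher in the 3 sham libraries.

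Microglia are the resident macrophages of the brain and renew by local division. Proliferating microglia-like cells numbered 2, 0 and 2 among 2000, 1832 and 2199 in sham, and 16, 11 and 10 among 2256, 2192 and 1640 in MCAO. As a share of the class this was 0.1%, 0% (a count of 0 allows up to 0.164%) and 0.0910% in sham and 0.709%, 0.502% and 0.610% in MCAO. Every MCAO library was above every sham library (exact two-sided permutation p = 0.1 for the share within the class, the smallest possible). Among kept barcodes their number rose by 2.91 ± 0.52 on the log2 scale (SE; edgeR quasi-likelihood test, p adjusted over 5 classes = 8.61e-05). Within the class the share rose by 3.08 ± 0.46 (adjusted p = 4.60e-06), and after thinning to 1500 UMIs by 2.72 ± 0.71 (adjusted p = 0.00253, 3 sham and 22 MCAO cells). The size of this rise depended on how cells were assigned: it was 1.95 ± 0.33 with cell cycle genes kept in the clustering (adjusted p = 1.24e-05, 11 sham and 44 MCAO cells) and 2.05 ± 0.38 with classes from each cell's own marker UMIs (adjusted p = 7.37e-05, 11 and 48 cells). Under these assignments sham 2 held 3 proliferating cells among 1833 and 4 among 2270, so its 0 depends on the clustering. Different clusters held the class in the 2 groups: 1 cluster had 5738 of the 6031 sham barcodes, and 3 others, led by Ccl12 and Tnf in the largest, had 32 of the 37 proliferating MCAO cells. In the cluster that both groups filled best, 3 of 259 sham (1.16%) and 3 of 1364 MCAO barcodes (0.220%) were proliferating, so the share was not higher in MCAO there.

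Their lineage markers were mostly those of microglia. All 37 MCAO cells and all 4 sham cells had at least 3 of 14 microglia markers, with a median of 12 and 13. Tmem119, a microglial membrane protein, was found in 37 of 37 MCAO cells, and P2ry12, the ADP receptor of surveying microglia, in 32. Ccr2 and Ly6c2, which mark blood monocytes, were at 0 UMIs in these 41 cells, which allows up to 8.11% of the 37 MCAO cells to have a UMI. In MCAO microglia-like barcodes without a rule UMI, Ccr2 was found in 1.61% and Ly6c2 in 3.09%, so a 0 in so few cells says little. Transcripts of other cell types were found too: Cldn5, an endothelial tight junction gene, was found in 55.1% of those same microglia-like barcodes, and 172 of the 173 proliferating cells had at least 3 markers of 2 or more lists, so a class rests on the level of its markers.

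T and NK cells are lymphocytes that divide on activation. Proliferating T or NK-like cells numbered 2, 6 and 2 among 30, 35 and 33 in sham and 9, 9 and 5 among 91, 95 and 63 in MCAO. Within the class the shares were 6.67%, 17.1% and 6.06% against 9.89%, 9.47% and 7.94%, which overlap, and the change was -0.14 ± 0.45 on the log2 scale (edgeR, adjusted p = 0.794). Among kept barcodes the change was 0.99 ± 0.47 (adjusted p = 0.0686) and without sham 2 it was 1.73 (adjusted p = 0.0147). This class was mixed. Of the 23 MCAO cells, 21 had at least 3 of 12 T or NK markers, but only 5 of the 10 sham cells did, and 7 of those 10 had Ly6c2. The T cell receptor subunit Cd3e was found in 17 of 23 MCAO and 4 of 10 sham cells, Cd8a in 12 and 2, Cd4 in 1 and 0, and the cytotoxic protease Gzmb in 16 and 4. Ncr1, a receptor of NK cells, was found in 3 and 1.

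Monocyte-derived-like cells showed the opposite pattern to microglia. Proliferating cells numbered 5, 10 and 14 among 47, 45 and 57 barcodes of the class in sham (10.6%, 22.2% and 24.6%) and 4, 3 and 3 among 601, 566 and 412 in MCAO (0.666%, 0.530% and 0.728%). The class itself was larger in MCAO while its proliferating cells were fewer. Within the class the share fell by 4.85 ± 0.40 on the log2 scale (edgeR, adjusted p = 6.54e-10), and among kept barcodes the number fell by 1.69 ± 0.44 (adjusted p = 0.00259), a call that was lost with TMM scaling over the classes (-1.14, adjusted p = 0.107). Here too different clusters held the class: the cluster with most sham barcodes held 5 of 47, 10 of 45 and 14 of 55 proliferating cells in sham and 4 of 120, 2 of 124 and 1 of 95 in MCAO. So the share was lower in MCAO within this cluster as well, at 3.33%, 1.61% and 1.05% against 10.6%, 22.2% and 25.5%. The Arg1-led cluster that made up most of the class in MCAO held 3 proliferating cells among 1240 barcodes.

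Many of these proliferating cells carried granule protease genes of early myeloid cells. Among the 29 sham cells, Ly6c2 and Plac8, both high in Ly6C+ monocytes, were found in 29, the chemokine receptor Ccr2 in 28, the granule proteases Prtn3 and Elane in 26 and 17 and myeloperoxidase (Mpo) in 7. Arginase (Arg1) was found in 0 of 29. In sham barcodes of the class without a rule UMI, Prtn3 was found in 33 of 107 and Elane in 3 of 107. Among the 10 MCAO cells, Ccr2 was found in 10, Prtn3 in 9, Elane in 5, Mpo in 2 and Arg1 in 6, while MCAO barcodes of the class without a rule UMI had Elane in 5 and Arg1 in 849 of 1484. The protease genes were thus found in proliferating cells of both groups, and 24 of the 29 sham cells also had at least 3 markers of the neutrophil list. With cell cycle genes kept in the clustering, 1 cluster had Elane, Prtn3 and Mpo among its leading genes. It held 33 proliferating cells among 34 sham barcodes and 12 among 12 in MCAO. The class name rests on the marker list, and descent from monocytes was not tested.

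Neutrophil-like proliferating cells came from 1 cluster. They numbered 5, 3 and 3 among 55, 45 and 48 in sham (9.09%, 6.67% and 6.25%) and 1, 2 and 0 among 203, 208 and 152 in MCAO, where the 0 allows up to 1.97%. Within the class the share fell by 3.56 ± 0.64 on the log2 scale (edgeR, adjusted p = 3.11e-05), and by 2.88 after thinning (adjusted p = 0.0520, 3 and 1 cells). The exact permutation p of the unthinned share was 0.1, the smallest possible. Among kept barcodes the number fell by 1.93 ± 0.72 (adjusted p = 0.0246), a call that was lost without sham 1 (-1.63), MCAO 1 (-1.84) or MCAO 3 (-1.54) and with likely doublets removed (-1.91, adjusted p = 0.0509). All 14 cells lay in a cluster that expressed Camp, Ngp and Ltf, granule protein genes of immature neutrophils, where 11 of 75 sham (14.7%) and 3 of 33 MCAO barcodes (9.09%) were proliferating. By library the shares in this cluster were 5 of 26, 3 of 26 and 3 of 23 in sham (19.2%, 11.5% and 13.04%) and 1 of 11, 2 of 10 and 0 of 12 in MCAO, so MCAO 2 lay above every sham library and the groups overlapped. The other neutrophil cluster held 0 proliferating cells among 73 sham and 530 MCAO barcodes. Retnlg, a transcript of mature neutrophils, summed to 110 CPM (counts scaled to a total of 1e+06) in the 11 sham cells and 22710 in sham barcodes of the class without a rule UMI, and Cxcr2, the receptor of mature neutrophils, was found in 1 of 11.

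Neuroblast-like proliferating cells were present in every library. They numbered 1, 3 and 1 among 25, 26 and 18 in sham and 2, 4 and 2 among 18, 20 and 16 in MCAO, with mean shares of 7.03% and 14.5%. The change within the class was 0.97 ± 0.63 on the log2 scale (edgeR, adjusted p = 0.252), so no difference was detectable with these few cells. Sox11, a transcription factor of young neurons, was found in 5 of 5 sham and 8 of 8 MCAO cells, Dlx2, which specifies interneurons, in 5 and 6, Igfbpl1 in 5 and 7, and doublecortin (Dcx) in 3 and 3. Rax, a gene of hypothalamic tanycytes, was found in 0 of the 13 proliferating cells but in 29 of 61 sham and 14 of 43 MCAO barcodes of the cluster without a rule UMI, so the cluster holds more than 1 cell type. Per 10000 UMIs, the G1 list of cyclins, kinases and E2F genes had a median of 80.9 in the 8 MCAO cells, against 8.05 in the 37 MCAO microglia-like cells.

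The remaining 33 proliferating cells were spread thinly. Dendritic-like cells gave 2 in sham and 6 in MCAO, border macrophage-like cells 3 and 2 (4 of these 5 had more microglia marker UMIs than their own), oligodendrocyte-like cells 0 and 2, and endothelial-like cells 0 among 13382 and 1 among 11419 barcodes. Another 17 lay in clusters with no name, and 12 of them had most marker UMIs from the microglia list. No proliferating cell was found among 2513 astrocyte-like (up to 0.119% allowed), 2749 choroid plexus-like (0.109%), 2687 smooth muscle-like (0.112%), 813 pericyte-like (0.369%) or 407 fibroblast-like barcodes (0.737%). These limits cover counting error only. In endothelial-like barcodes, of which 1 was proliferating by the rule, at least 1 rule UMI was found in 2.01% in sham and 2.70% in MCAO at median depths of 2159 and 2399 UMIs. In microglia-like barcodes the same share was 2.84% in sham and 8.13% in MCAO, at medians of 2423 and 3657.5 UMIs.

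**Figure D2:**
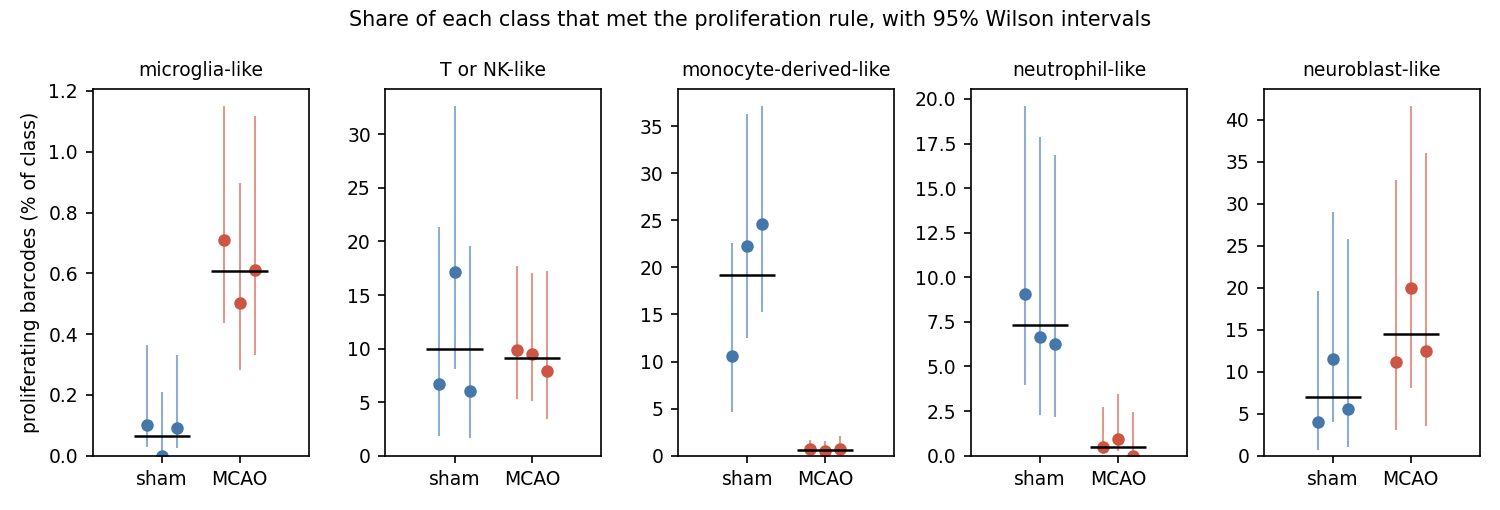
Share of proliferating cells within each class, in percent of the barcodes of that class, per library (points) with 95% Wilson intervals (thin lines) and the mean of each group (thick line), and with a vertical scale of its own for each class. The microglia-like shares lie at or under 0.1% in sham and between 0.502% and 0.709% in MCAO, and the monocyte-derived-like shares lie between 10.6% and 24.6% in sham and between 0.530% and 0.728% in MCAO.

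Proliferating microglia-like cells were then set beside the MCAO microglia-like barcodes with no rule UMI, with 1 sum per library for each set. These are called the other barcodes here, and barcodes with 1 to 4 rule UMIs were in neither set. This is the contrast that the rule used, so no test is given. A gene counted as higher in all 3 libraries when its 3 values in proliferating cells all exceeded the 3 of the other barcodes. Lower was counted in the same way. Of 5958 genes of at least 20 CPM, 1147 (19.3%) were higher in the proliferating cells of all 3 libraries and 1007 (16.9%) lower, with a median log2 ratio of 0.04 (10 CPM added). The lists of replication, mitosis and chromatin stood above this: the 34 replication genes had a median of 1.54 (29 higher in all 3 libraries), 22 mitotic kinase and checkpoint genes 2.41 (16), 18 centromere and kinetochore genes 2.41 (17) and 18 condensin and chromatin genes 1.41 (15). The G1 list had a median of 0.51 (9 of 21 higher and 3 lower), and the list of CDK inhibitors and cycle exit one of -0.02 (3 of 15 higher and 4 lower). Tk1, the thymidine kinase of S phase, stood at 96.8, 116 and 158 CPM in MCAO 1 to 3, against 1.47, 1.63 and 1.01 in the other barcodes. Rrm2, the regulated subunit of ribonucleotide reductase, stood at 273, 319 and 363 CPM against 2.81, 2.01 and 1.88. Both genes were thus near 0 in the barcodes of each library that had no rule UMI.

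The helicase gene Mcm6 was less exclusive, at 132, 126 and 126 CPM against 32.4, 29.2 and 27.5. Stmn1, which destabilises microtubules, stood at 854, 792 and 821 CPM against 82.3, 80.4 and 62.1. Homeostatic microglia genes stayed near the rest, with 2 of 16 higher in all 3 libraries, 0 lower and a median of 0.06. Tmem119 stood at 942, 1081 and 1437 CPM against 797, 850 and 871. Activation genes were mostly lower: 17 of 24 were lower in the proliferating cells of all 3 libraries and 1 was higher, with a median of -0.70. Spp1 (osteopontin) stood at 6574, 7743 and 647 CPM against 19632, 17895 and 17766, and is lowest by far in the proliferating cells of MCAO 3. Ccl12, a chemokine, went the other way, at 8114, 11045 and 7231 CPM against 5619, 6069 and 6010. The 2 sets also differed in their clusters. A cluster led by Mmp12, Lpl and Spp1 held 2 proliferating cells among 1349 MCAO barcodes. The one led by Ccl12 and Tnf held 19 among 1733, and one led by Ccl12 and Spp1 8 among 484. The part of this cluster mix in the ratios was not tested. Of 16 immediate early genes 10 were lower in all 3 libraries and 0 higher, and Jun stood at 1452, 1960 and 2258 CPM against 3009, 2939 and 3043.

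The same description in 2 other classes shared the cycle lists but differed in the rest. Proliferating cells were again set beside barcodes of the class with no rule UMI. For monocyte-derived-like cells this was done within the cluster with most sham barcodes. In MCAO T or NK-like cells, 854 of 6348 genes (13.5%) were higher and 844 (13.3%) lower in all 3 libraries, and 14 of 16 immediate early genes were lower, with a median of -1.40. Gzmb stood at 2179, 3410 and 7704 CPM in the proliferating cells against 1099, 830 and 818, while the chemokine Ccl5 stood at 2962, 2277 and 6122 against 14443, 15280 and 14343. Cd3e was higher, at 328, 274 and 381 CPM against 206, 142 and 129. Mpo was at 0, 930 and 0 CPM in the proliferating cells, and Elane at 0, 370 and 0, so these myeloid granule genes came from MCAO 2.

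In sham monocyte-derived-like cells, 1035 of 5798 genes (17.9%) were higher and 1056 (18.2%) lower in the proliferating cells of all 3 libraries. The replication list had a median of 2.33 (30 of 34 higher), and 12 of 18 MYC, ribosome biogenesis and growth genes were higher, with a median of 1.05. Elane stood at 473, 1362 and 304 CPM against 10.4, 6.22 and 0, and Npm1, a nucleolar protein, at 709, 890 and 575 against 250, 286 and 280. Both were higher in every library, and Elane was highest in sham 2. Klf2, a factor of quiescent and mature leukocytes, stood at 266, 224 and 459 CPM against 1581, 1642 and 1778. As in the other classes, immediate early genes were mostly lower (14 of 16).

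Replication genes were also found in microglia-like barcodes that the rule did not choose. Replication-positive barcodes, as defined above, made up 1.0%, 1.09% and 1.05% of the class in sham (20, 20 and 23) and 19.3%, 15.4% and 18.4% in MCAO (435, 338 and 301). The sham libraries lay close together and far below every MCAO library. The means were 1.05% ± 0.0459 (SD, n = 3) and 17.7% ± 2.02, a ratio of 16.9 with an exact two-sided permutation p of 0.1, the smallest possible. Depth bears on such a count, and with all barcodes thinned to 1500 UMIs the shares were 0.253%, 0.165% and 0.0914% against 3.4%, 2.45% and 2.62%. The ratio was then 16.6 (exact permutation p = 0.1), although the level was lower in both groups. Of the 1074 replication-positive MCAO barcodes, 32 were proliferating by the rule and 825 had no rule UMI at all.

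In endothelial-like barcodes, where 1 cell was proliferating by the rule, the replication-positive share was 0.999% in sham and 2.72% in MCAO, and 0.0863% and 0.1004% after thinning (exact permutation p = 0.8). The thinned shares of this class overlapped and rest on 11 barcodes in each group. In monocyte-derived-like barcodes the shares were 19.4% and 11.6%, and 9.06% and 0.688% after thinning (exact permutation p = 0.1). T or NK-like barcodes gave 23.2% and 25.4% (12.02% and 10.3% thinned). Among the microglia-like clusters the MCAO share ran from 1.96% to 30.1%. The cluster with most sham barcodes had 0.784% in sham and that 1.96% in its 102 MCAO barcodes. The cluster that both groups filled best had 6.56% in sham and 5.94% in MCAO, so it showed no rise. The MCAO cluster with 30.1% also had the deepest barcodes, with a median of 5503 UMIs.

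Among the listed genes, subunits of the replicative helicase were higher in MCAO also where no rule gene was found. In microglia-like barcodes with no rule UMI, pooled per group, Mcm6 stood at 10.7 CPM in sham and 29.8 in MCAO, Mcm5 at 3.88 and 16.9 and Mcm2 at 2.86 and 19.99. Pcna, which also serves DNA repair, stood at 79.2 and 122 CPM. Genes of ongoing synthesis stayed near 0 in both groups, with Rrm2 at 0.885 and 2.26 and Tk1 at 1.497 and 1.39 CPM. Ccne1, the cyclin of the G1 to S step, gave 1 UMI in 5860 sham and 80 UMIs in 5593 MCAO barcodes, and Cdkn1a, the inhibitor that halts the cycle, stood at 64.0 and 568 CPM. These pooled levels have no replicate error.

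**Figure D3:**
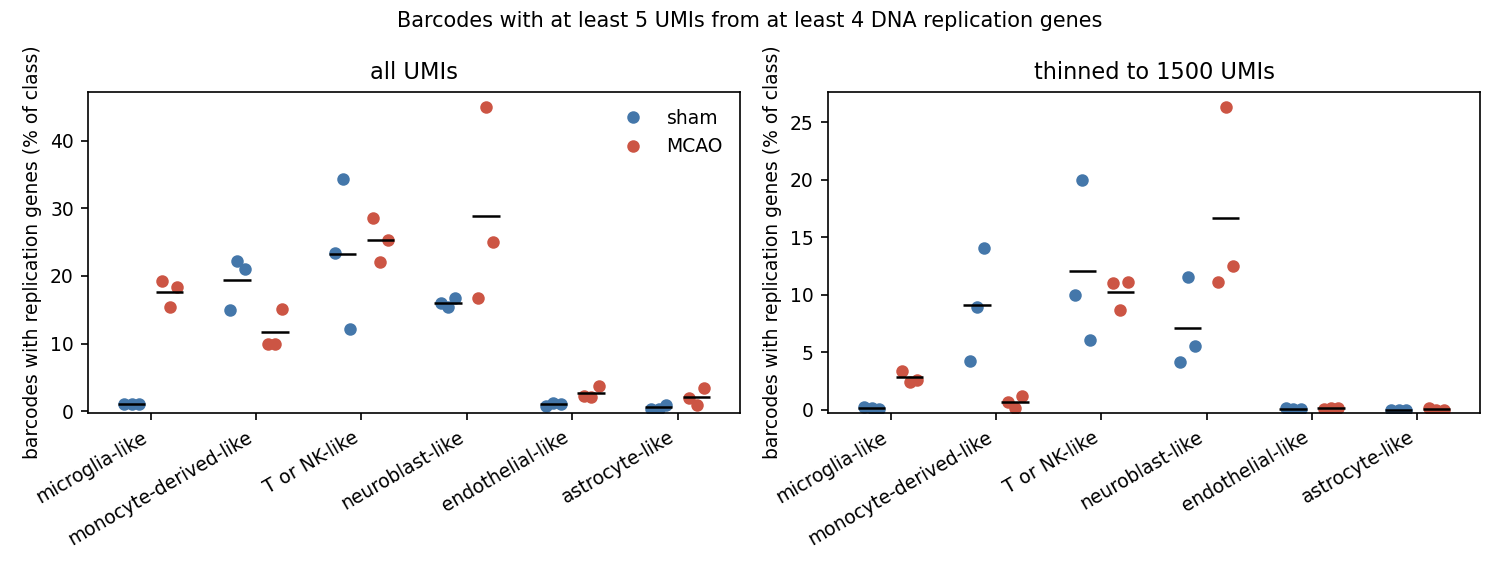
Share of replication-positive barcodes per class and library, in percent of the barcodes of the class (points, with the group mean as a line), at full depth on the left and after thinning to 1500 UMIs on the right, where the vertical scale differs. In microglia-like barcodes the 3 MCAO libraries lie between 15.4% and 19.3% and the 3 sham libraries between 1.0% and 1.09% at full depth, and the thinned values keep this order.

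Gene levels within the proliferating cells were compared between the groups on sums over all 173 cells, 1 sum per library. The mix of classes differs between these sums, so a change of a gene and a change of the classes cannot be told apart here, and no class had 10 cells in every library for a fit of its own. Of 3878 genes tested, 559 passed an adjusted p of 0.05 (14.4%; edgeR), 286 higher in MCAO (7.37%) and 273 lower (7.04%), and for 1303 (33.6%) the libraries of the groups did not overlap. DESeq2 called 304 genes, and without MCAO 2 edgeR called 178 lower. Spp1, of the activation list, rose most, at 5.92, 20.7 and 24.1 CPM in sham and 3155, 3350 and 986 in MCAO (log2 change 7.07 ± 0.84, adjusted p = 0.0117). The receptor gene Gpr84 rose by 6.04 ± 0.69, the interferon-induced chemokine Cxcl10 by 5.41 ± 0.50, Ccl12 by 4.41 ± 0.53 and Tnf by 3.57 ± 0.46. Genes of lymphocytes rose too, Gzmb by 3.75 ± 0.70 and the adhesion molecule Cd2 by 3.48 ± 0.51, as did Bcl2a1d, of the BCL2 family, by 4.33 ± 0.42, lamin A/C (Lmna) by 3.91 ± 0.63, Adamts1 by 3.56 ± 0.43, Spint1 by 3.51 ± 0.50 and the chemokine Ccl4 by 3.37 ± 0.57.

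The genes that fell most included genes of granulocyte precursors and of phagocytes. Fcnb, a ficolin of immature granulocytes, stood at 722, 255 and 229 CPM in sham and 26.2, 27.8 and 0 in MCAO (log2 change -4.29 ± 0.91, adjusted p = 0.0498). Cybb, the catalytic subunit of the phagocyte oxidase, stood at 444, 396 and 447 CPM in sham and 85.1, 90.4 and 71.7 in MCAO (-2.36 ± 0.19, adjusted p = 3.10e-07). Itgb2l fell too (-3.85 ± 0.82), as did Dynlt1b (-3.59 ± 0.32), Clec12a (-2.65 ± 0.27), complement C3 (-2.55 ± 0.49), Hacd4 (-2.46 ± 0.46) and Lst1 (-2.37 ± 0.28). Some marker lists moved with the classes, while over all genes 7.37% rose and 7.04% fell. Of 13 tested microglia markers 7 rose and 0 fell, and of 9 monocyte markers 5 fell and 0 rose. Of 8 T or NK markers 2 rose. Of 6 tested neutrophil markers 0 were called, with a median of -2.79. C1qb, a complement subunit made by microglia, stood at 1219, 906 and 1102 CPM in sham and 3757, 3548 and 3832 in MCAO (1.79 ± 0.12), and Ly6c2 at 2574, 3190 and 2728 against 658, 404 and 686 (-2.28 ± 0.19). Markers of classes with few or no proliferating cells also rose: 3 of 4 tested astrocyte, 1 of 5 oligodendrocyte, 1 of 4 dendritic and 1 of 1 erythroid markers. Among them were Mbp of oligodendrocytes by 2.25 ± 0.58, Slc1a2 of astrocytes by 2.12 ± 0.48 and the hemoglobin Hbb-bs by 2.13 ± 0.54. The part of such markers in the other changes was not tested. In marker lists this short, a count of 1 or 2 is no result about the list.

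The called changes of replication, mitosis and chromatin genes lay between -0.94 and 0.80 on the log2 scale. Over all genes tested, 7.37% rose and 7.04% fell. Of 28 replication genes tested, 1 rose and 0 fell, with a median log2 change of -0.07 against 0.02 over all genes: Mcm3, a helicase subunit, stood at 107, 124 and 92.5 CPM in sham and 164, 181 and 229 in MCAO (0.80 ± 0.23, adjusted p = 0.0239). The rule genes, given with no test because the rule counts them, had log2 changes from -0.66 for Nusap1 to 0.47 for Cenpf, with Cdk1 at -0.06, Mki67 at -0.26 and Top2a at -0.21. Where genes of mitosis and chromatin passed the test, they fell, and 0 of them rose. Among condensin and chromatin genes 7 of 17 fell (median -0.43), and among centromere and kinetochore genes 3 of 15 (-0.32). Among mitotic kinase and checkpoint genes 2 of 17 fell (-0.32), near the share over all genes. None of 20 spindle genes passed the edgeR test in either direction (median -0.10). Hmgb2, a chromatin protein of dividing cells, stood at 4255, 3742 and 4244 CPM in sham and 2533, 2271 and 1560 in MCAO (-0.94 ± 0.15, adjusted p = 0.00124). Cks2, the small partner of Cdk1, changed by -0.70 ± 0.16, cyclin B2 (Ccnb2) by -0.61 ± 0.20, the kinetochore gene Spc25 by -0.80 ± 0.26, the centromeric histone Cenpa by -0.59 ± 0.17 and the histone H2afx by -0.59 ± 0.15.

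Some genes of cycle entry and of growth rose, while over all genes 7.37% rose and 7.04% fell. In lists of 8 or 10 genes, a count of 1 or 2 differs from these shares by few genes. Such a count is no result about the list. Of 10 tested genes of the G1 list 2 rose and 0 fell: Myc, at 5.92, 0 and 4.02 CPM in sham and 52.4, 45.2 and 44.8 in MCAO (3.86 ± 0.72, adjusted p = 0.00157), and cyclin D1 (Ccnd1), by 1.48 ± 0.43. Of 17 MYC, ribosome biogenesis and growth genes 9 rose and 0 fell (median 0.75), among them spermidine synthase (Srm) by 2.01 ± 0.34, the nucleolar protein Nolc1 by 1.28 ± 0.33 and the helicase Eif4a1 by 0.56 ± 0.12. Inhibitors of the cycle went both ways: 3 of 8 rose and 2 fell. Cdkn1a stood at 272, 110 and 249 CPM in sham and 497, 546 and 789 in MCAO (1.56 ± 0.33, adjusted p = 0.0180), and the stress gene Gadd45b rose by 2.03 ± 0.38, while Ccng2 changed by -1.19 ± 0.31 and Cdkn2d, of the INK4 family, by -0.68 ± 0.21. Of 8 tested mitogens and receptors 1 rose, near the share over all genes: Csf1r, which microglia need to survive and divide, by 1.17 ± 0.19.

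Lists named for microglial state also held changed genes, while over all genes 7.37% rose and 7.04% fell. Most genes of the homeostatic list are also among the microglia markers counted above. A change of state and a larger part of microglia-like cells cannot be told apart here. Of 13 homeostatic microglia genes 5 rose and 0 fell (median 1.17), with Fcrls up by 1.64 ± 0.15, Gpr34 by 1.65 ± 0.31 and the fractalkine receptor Cx3cr1 by 1.04 ± 0.19. Of 19 activation genes 11 rose and 3 fell (median 1.28), and the adhesion receptor Cd44 and galectin 3 (Lgals3) were among the latter, at -1.34 ± 0.31 and -1.21 ± 0.21. Of 15 immediate early genes 6 rose and 0 fell (median 0.64), among them Ier3 by 2.08 ± 0.28 and Egr1 by 2.001 ± 0.23. Of 13 hypoxia and glycolysis genes 2 rose (median 0.13), too few to set the list apart from all genes. They were lactate dehydrogenase Ldha, by 0.82 ± 0.18, and the collagen hydroxylase P4ha1, by 1.41 ± 0.41. Of the 70 genes picked for naming in these sums, 31 lost their call or turned direction under at least 1 of the alternatives. Among them were Fos under 11 of 13, Fcnb under 10, Ccl4 and Cdkn2d under 9 and Spc25, Ccnb2 and Cenpa under 7. Mcm3, Gzmb, Mbp and P4ha1 did so under 5 and Spp1 under 3.

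**Figure D4:**
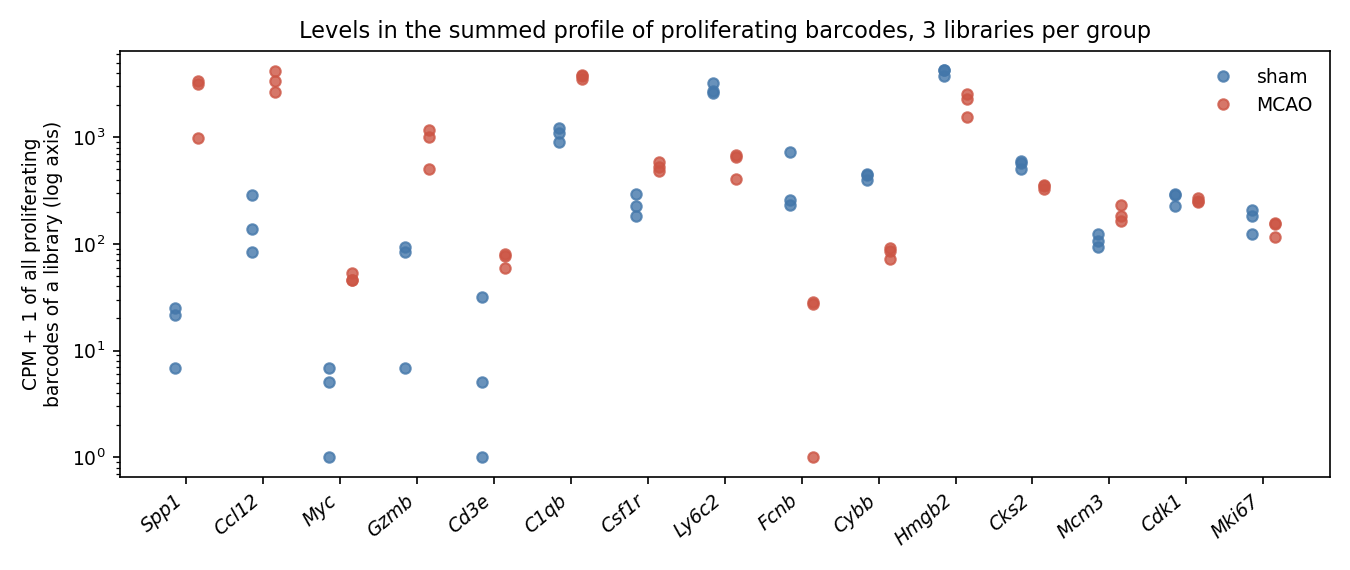
Levels of named genes in the summed proliferating cells of each library, in CPM with 1 added on a log axis, with a point for each library. Spp1, Ccl12 and C1qb lie higher in all 3 MCAO libraries, Ly6c2, Cybb and Hmgb2 lie lower in all 3, and the points of Cdk1 and Mki67 overlap between the groups.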

How the data were processed

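The labels' protocols describe a papain digest (30 min, 37 °C), a 40 µm strainer and capture with the Chromium 3' kit for each of the 3 sham and 3 MCAO libraries. The authors deposited raw UMI counts for called cells as 1 sparse matrix per library, made with Cell Ranger and STAR on mm10, per the submitters' processing notes, and lists of barcodes and genes. No version or annotation is given in the sources used here. The gene table the authors deposited lists 27998 genes. Free RNA was not removed from the counts.

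Of 58528 barcodes, 15 with under 300 genes and 1298 of the rest with over 10% mitochondrial UMIs were left out. Kept barcodes were clustered with scanpy 1.11.5 and leidenalg 0.10.2 (2000 variable genes without cell cycle genes, 30 principal components, 20 neighbours, resolution 3) into 64 clusters and named by at least 3 markers detected in 25% of their barcodes. The resolution, and the rules that left clusters unnamed (markers of another class among the 10 leading genes, or at least 50% likely doublets), were set after the clusters were seen. Doublets were called after the idea of Scrublet at 0.8% per 1000 barcodes.

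Cells per class, and gene sums over the selected cells, were tested with edgeR 4.0.16 (quasi-likelihood, group as the only term, Benjamini-Hochberg adjustment over 5 classes or 3878 genes, threshold 0.05). Classes with at least 10 selected cells in all were tested, with the log of kept or class barcodes as offset. For classes, edgeR shared its estimate of the spread between libraries over the 5 classes. Its p can therefore fall far under 0.1, the smallest exact permutation p for 3 against 3 libraries. The ± of an edgeR log2 change is an SE taken as the size of the change divided by the square root of its F statistic. DESeq2 1.42.0 was an alternative. On simulated counts for 3616 genes, 94 of 99 genes changed by 2 on the log2 scale and 98 of 98 changed by 3 were recovered, with 8 false calls. The simulation gave every gene the same dispersion between libraries and held no mix of classes. Its rates therefore need not hold for the real sums. CPM values were scaled to 1e+06 counts. Shares were compared with exact two-sided permutation tests and given 95% Wilson intervals. Limits on counts of 0 use 3 counts.

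Named genes were the 12 highest and 8 lowest log2 changes among called genes whose libraries did not overlap between groups and that reached a group mean of 50 CPM, without marker, rule, mitochondrial, ribosomal and provisional genes, plus called members of each list. Genes higher in selected cells than in barcodes of their class with no rule UMI were taken from the highest ratios of at least 100 CPM and from the lists. Individual marker genes, Mcm6, Klf2 and the genes given for barcodes without rule UMIs were chosen after their values were seen. The cells, lists, markers and tests were chosen with earlier results of these data known. Ighm, Ighd, Igkc, Trac, Trbc2 and Knl1 were listed but not analysed here.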

Additional observations from a re-analysis of the deposited data

Results flagged for a closer look

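The change between the groups went in opposite directions in the classes. Within microglia-like barcodes the share of proliferating cells changed by 3.08 on the log2 scale (MCAO over sham), with every MCAO library above every sham library, and by 1.95 and 2.05 with cell cycle genes in the clustering and with classes from own marker UMIs. Within monocyte-derived-like barcodes it changed by -4.85 and within neutrophil-like barcodes by -3.56, with every MCAO library below every sham library. Different clusters held these classes in the 2 groups. In the microglia-like cluster that both groups filled best, 3 of 259 sham and 3 of 1364 MCAO barcodes were proliferating, so the share was not higher in MCAO. In the monocyte-derived-like cluster with most sham barcodes the share was 19.7% in sham and 2.06% in MCAO. In the cluster that holds all 14 neutrophil-like cells, the libraries of the groups overlapped (MCAO 2, with 2 of 10, lay above every sham library). The difference between these changes was not tested.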

How the results depend on the processing

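Of 228 comparisons of the main results with an alternative, 203 were labelled the same. For changes of a class this meant the same direction and side of the threshold. For counts of called genes it meant only a count of similar size. The permutation p of the shares cannot fall under 0.1, so for them only the direction could change. The 203 is therefore no measure of how stable the calls are. Among kept barcodes, the T or NK-like change passed the threshold with at least 3 rule UMIs (1.08), clustering with cell cycle genes (1.81) and classes from each cell's own marker UMIs (1.74), and ran from 0.66 to 1.73 with 1 library left out. The monocyte-derived-like change did not pass with TMM scaling (-1.14). The neutrophil-like change did not pass with at least 8 rule UMIs (-1.81), thinning (-1.46), doublets removed (-1.91), at least 3 rule genes (-1.65) or TMM (-1.53), and ran from -2.71 to -1.54 with 1 library left out. Within the class, the neutrophil-like change did not pass after thinning (-2.88). The T or NK-like change within the class turned positive with doublets removed (0.11), cell cycle genes (0.62), own markers (0.45) and TMM (0.65), and ran from -0.41 to 0.53 with 1 library left out. The neuroblast-like one turned to -0.13 with own markers. The microglia-like change kept its call but fell in size with cell cycle genes in the clustering (1.95 within the class, 1.78 among kept barcodes) and with own markers (2.05 and 1.90). The cause was not tested. Genes called were 304 with DESeq2 (166 higher, 138 lower), 441 higher with at least 3 rule UMIs, and 400 to 518 with 1 library left out (203 to 252 higher, 178 to 281 lower). Of the rule genes, Cdk1 in all members turned to 0.0398 with doublets removed and 0.0121 with at least 3 rule genes, and Ccnb1 in all members to 0.0314 with doublets removed. With 1 library left out Cenpf in all members ran from -0.0394 (MCAO 3) to 0.78 and Ccnb1 from -0.36 to 0.18 (above 0 without sham 3, MCAO 2 or MCAO 3). Same-numbered libraries did not deviate together (correlations of 0.07, -0.04 and 0.00). Sums over so few cells of mixed classes cannot decide whether libraries were made in pairs. With the replicate block 521 genes were called, 487 of the 559 among them, and no class call changed (microglia-like 2.93). The ratio of overall shares was 1.71 with at least 3 rule UMIs and 1.07 with at least 8. Fits of genes within single classes, and tests of their differences, could not be made with under 10 cells in some libraries. Requiring 3 rule genes, resolution 1 and the alternatives for replication genes were chosen after seeing the data. With 18 to 41 selected cells per library, counts set the precision.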
